A study of Mus musculus with 15 samples.

Results

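Nearly all SLC25 proteins are carriers of the inner mitochondrial membrane. Most exchange one small molecule of the matrix for another of the cytosol, among them ADP for ATP, phosphate, organic acids, amino acids, nucleotides, coenzymes and iron, and they so tie the respiratory chain and the Krebs cycle to the rest of the cell. Mature red cells lack mitochondria, whereas leukocytes, platelets and maturing red cells have them. Members were the genes whose symbol starts with Slc25a followed by a digit, Slc25a37 and Slc25a38 left out, and where a gene had several probe sets the brightest on average stood for it. They came to 42 of the 18193 genes with a probe set of their own. The family was chosen by the values of Slc25a24, which fell in these same arrays, so its values are given below as a description. It is left out of the counts of members past a threshold, and nothing is read from a test of it.

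RNA of mouse whole blood was measured on 15 Affymetrix 3' arrays, 1 per mouse. ABBV-075 (mivebresib) blocks BET bromodomain proteins, readers of acetylated chromatin that promote transcription. The groups were 5 vehicle mice, 5 mice dosed with 1 mg/kg ABBV-075 and 5 dosed with 5 mg/kg, all bled 6 h after dosing. Strain, genotype, sex, age and the route of dosing are not given in the sources used here, and whole blood holds many cell types.

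Values are log2 intensities after quantile normalisation, with intensities under a floor of 16 (4 on the log2 scale) set to it. A gene was tested if it lay above the floor on at least 5 arrays. Of the 42 members, 30 were tested, 19 of them above the floor on all 15 arrays and 11 on 5 to 14. The untested 12 comprised 8 at the floor on all 15 arrays, namely Slc25a31, the ADP/ATP translocase of germ cells, Slc25a41, Slc25a18, Slc25a26, Slc25a40, Slc25a14, Slc25a53 and Slc25a54. The other 4, Slc25a13, Slc25a17, Slc25a33 and Slc25a27, lay above it on 1 to 4 arrays. Before scaling, array medians ran from 3.61 on 1 mg/kg replicate 1 to 25.4 on 1 mg/kg replicate 4, while the mean signal of the Cre spike-in ran only from 11670 to 14881. The 18S ribosomal RNA probe signal, on the log2 scale, averaged 11.19 in the vehicle group (SD 0.94, n = 5), 9.97 in the 1 mg/kg group (SD 0.43) and 9.42 in the 5 mg/kg group (SD 0.42).

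The promoter sequences of 33 of the 42 members were found in the RefSeq table for GRCm38.p6. Below are the 250 bases before the start of Slc25a24 (chr3:109122899-109123148, plus strand), because it chose the family, and of Slc25a3 (chr10:91123968-91124217, minus strand), because its window held both motifs known from promoters of mitochondrial genes. Capitals mark a match to the NRF1 motif (GCGC, any base, TGCGC) or CCGGAAG (an ETS motif), each searched on both strands.
Slc25a24: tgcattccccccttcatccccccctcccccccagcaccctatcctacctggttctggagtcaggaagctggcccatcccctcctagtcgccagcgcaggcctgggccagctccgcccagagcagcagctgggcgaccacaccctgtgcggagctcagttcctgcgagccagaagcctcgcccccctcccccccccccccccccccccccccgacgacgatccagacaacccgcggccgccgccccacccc
Slc25a3: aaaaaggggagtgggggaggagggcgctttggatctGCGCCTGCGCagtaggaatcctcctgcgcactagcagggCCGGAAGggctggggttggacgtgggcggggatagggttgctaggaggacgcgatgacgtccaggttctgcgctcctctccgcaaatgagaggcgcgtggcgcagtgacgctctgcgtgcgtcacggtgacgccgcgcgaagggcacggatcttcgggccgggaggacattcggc
The window of Slc25a24 held no match to NRF1, ETS, CCAAT or TATAAA and had a GC content of 72.8%, against a median of 52.4% over all windows. NRF1 matched in 2 of the 33 member genes, Slc25a3 and Slc25a31, and in 4.23% of the 27025 genes in the table. The ETS motif matched in 5, Slc25a3, Slc25a4, Slc25a17, Slc25a20 and Slc25a54, and in 7.83% of all genes. CCAAT was found in 17 members and 37.5% of all genes, and TATAAA in 1 member, Slc25a18, and 14.3% of all genes. Slc25a54 starts 42650 bases upstream of Slc25a24 on the same strand, and it lay at the floor on all 15 arrays. A match describes the letters of a window and shows no binding.

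Slc25a24 (Entrez 229731) is a calcium-regulated carrier that exchanges ATP-Mg for phosphate and so sets the adenine nucleotide pool of the matrix. Its log2 intensity was 5.92, 5.58, 5.66, 5.93 and 5.53 in the 5 vehicle mice. At 1 mg/kg it was 4.00, 4.44, 4.95, 4.79 and 4.38, the first at the floor. In the 5 mg/kg mice it was 4.85, 4.13, 4.69, 4.59 and 4.55. All 10 treated arrays lay below all 5 vehicle arrays, and the doses overlapped each other. The mean was lower than with vehicle by 2.24-fold at 5 mg/kg (log2 difference -1.16 ± 0.21, SE) and by 2.32-fold at 1 mg/kg (-1.21 ± 0.21), and both differences share the vehicle arrays. The treated arrays lay close to the floor, so these sizes depend on it. With a floor of 32 all 10 treated arrays sat at the floor. Both log2 differences were then -0.73, which is only the distance from the vehicle mean to that floor. Between the doses the log2 difference was 0.05 ± 0.21, with a 95% interval of -0.39 to 0.49.

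**Figure D1:**
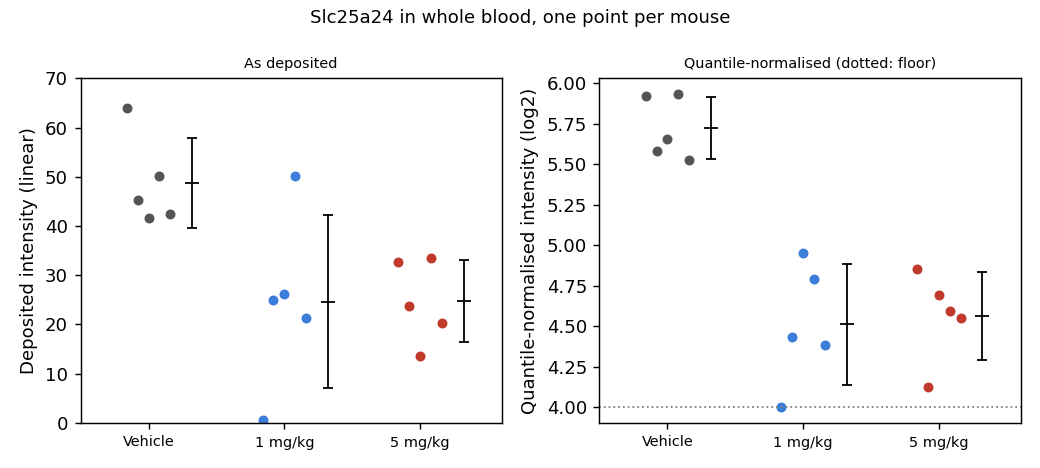
Slc25a24 on each of the 15 arrays, as log2 intensity after quantile normalisation with the floor of 16 and as deposited intensity, by group (vehicle, ABBV-075 at 1 mg/kg and at 5 mg/kg); points are mice and bars the group mean and SD. After normalisation every treated array lies below the vehicle arrays, which run from 5.53 to 5.93, whereas among the deposited values 1 mg/kg replicate 4, at 50.1, lies inside the vehicle range of 41.6 to 63.9.

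In the values as deposited, before scaling between arrays, Slc25a24 read 63.9, 45.3, 41.6, 50.2 and 42.4 with vehicle. At 1 mg/kg it read 0.587, 25.1, 26.2, 50.1 and 21.4, and at 5 mg/kg 32.6, 23.8, 13.6, 33.4 and 20.4. The lowest and the highest of the 1 mg/kg readings came from the arrays of lowest and highest median intensity. A second probe set of the gene lay at the floor on all 15 arrays, so the difference was seen with 1 probe set. Monocyte markers had lower means in 10 of 10 cases at 5 mg/kg and 9 of 10 at 1 mg/kg, and 0 of 10 passed limma's adjusted threshold. At an unadjusted p under 0.05, 5 were lower in each comparison with vehicle, as were 4.26% of all genes at 5 mg/kg and 4.06% at 1 mg/kg. Of 12 listed, 10 were matched and none of these lay at the floor on all arrays, and their summed intensity ran from 5371 to 8198 over the vehicle arrays, 3900 to 6737 over the 1 mg/kg arrays and 3316 to 4516 over the 5 mg/kg arrays. Their median log2 difference was -0.87 at 5 mg/kg and -0.59 at 1 mg/kg. Every other blood cell list also had a negative median at 1 mg/kg, among them NK cells (-0.55), neutrophils (-0.49) and platelets (-0.43). The part of these cell types in the Slc25a24 difference was not tested. The 18S signal ran from 10.24 to 12.31 over the vehicle arrays and from 8.83 to 9.88 over the 5 mg/kg arrays. It therefore cannot be told apart from dose between these groups. With it as a covariate, the log2 difference of Slc25a24 at 5 mg/kg was -1.01, and 0 of all tested genes passed limma's adjusted threshold. In whole blood, fewer cells of a type and less RNA per cell cannot be told apart.

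At 5 mg/kg against vehicle, none of the 29 tested members other than Slc25a24 passed limma's adjusted p of 0.05, and none did in any of the 31 alternatives in which it could be tested. Over all 12499 tested genes 0.088% passed, 0.064% as lower and 0.024% as higher. Slc25a24, whose value in this contrast chose the family, is among them in the standard setting and not in 19 of the 31 alternatives, including leaving out any 1 vehicle or 5 mg/kg array. With 1 probe set per gene, an unadjusted p under 0.05 was reached by 2 of the 29. These were Slc25a11 as higher (3.51% of all tested genes) and Slc25a2 as lower (4.26%), or 7.78% in either direction. Apart from Slc25a24 no member had treated and vehicle arrays without overlap (1.11% of all genes as higher, 1.46% as lower). Of the 30 members, 15 had a higher and 14 a lower mean than with vehicle, against 46.6% and 53.4% of all genes. The median log2 difference was 0.01 over the 29 others and -0.03 over all genes.

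**Figure D2:**
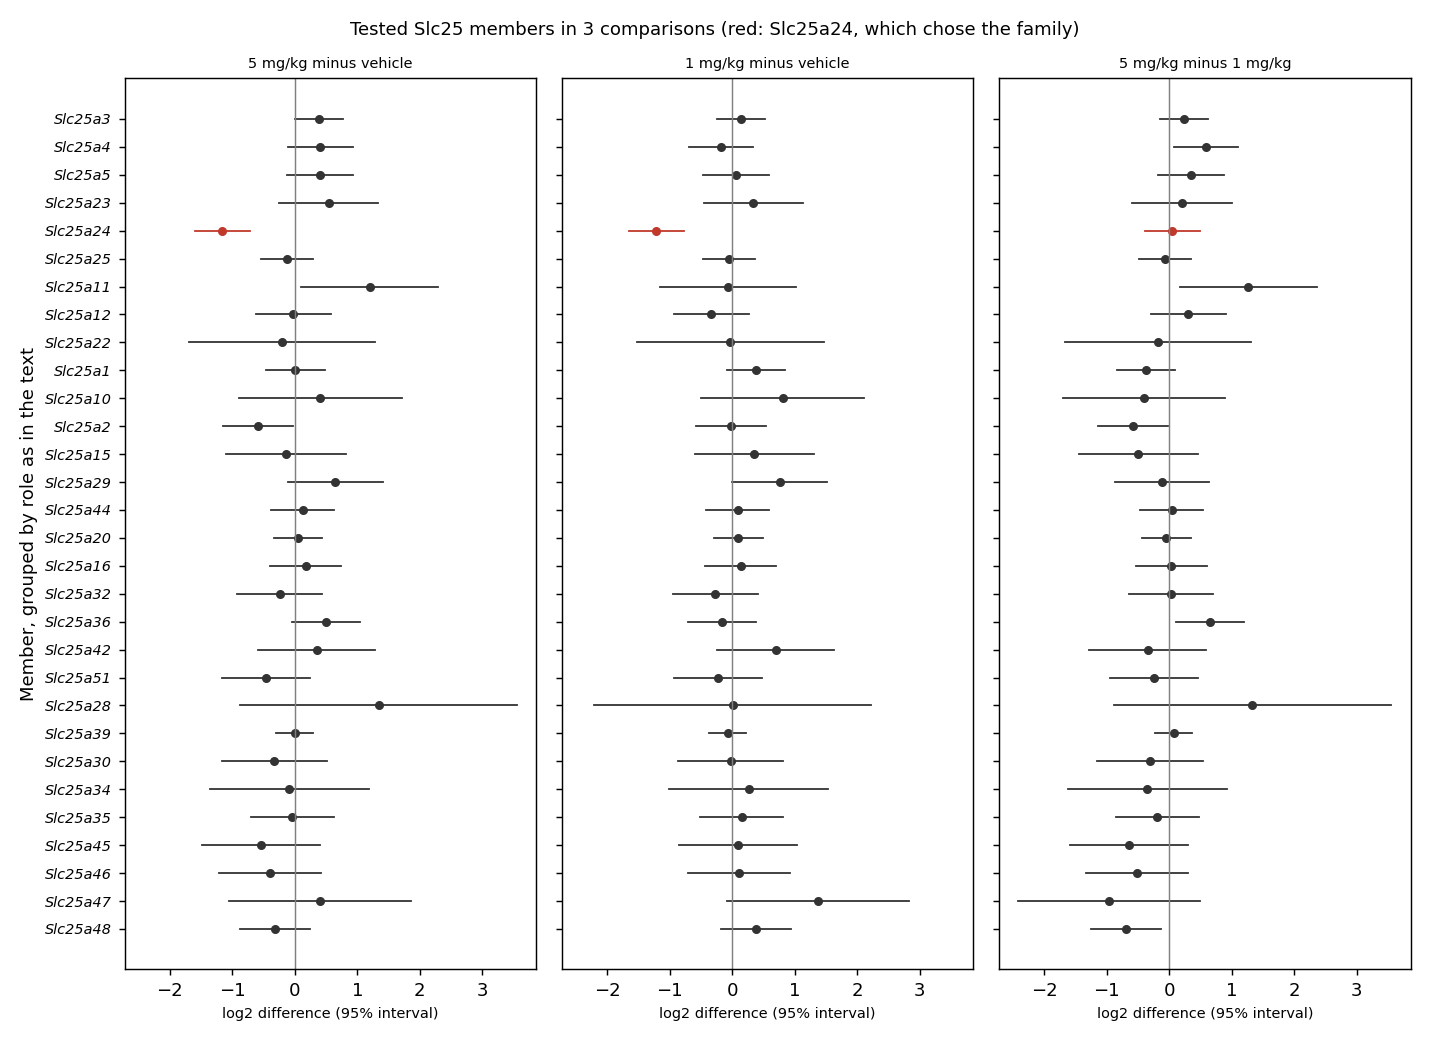
Log2 differences of the 30 tested members with their 95% intervals from limma, for 5 mg/kg and 1 mg/kg against vehicle and for 5 mg/kg against 1 mg/kg, ordered by role. Slc25a24, chosen because it fell on these same arrays, lies on the left in both comparisons with vehicle (-1.16 and -1.21) and near 0 between the doses. The intervals of most other members cross 0.

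The other ATP-Mg/phosphate carriers are its closest relatives in transport activity. Slc25a25 averaged 8.38 in the vehicle group (SD 0.13, n = 5), 8.33 in the 1 mg/kg group (SD 0.32) and 8.25 in the 5 mg/kg group (SD 0.28). Its difference at 5 mg/kg was -0.13 with a 95% interval of -0.54 to 0.29. Slc25a23 stood at 4.75 ± 0.82, 5.09 ± 0.64 and 5.29 ± 0.37, a log2 difference of 0.55 ± 0.37 (SE) at 5 mg/kg (limma, adjusted p = 0.813). It was above the floor on only 3 of the 5 vehicle arrays, so this size depends on the floor. Slc25a41 lay at the floor throughout. No test of the difference between Slc25a24 and these relatives was made.

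The carriers that feed ATP synthesis had higher means at 5 mg/kg, and none passed the test. Slc25a3 imports the phosphate that ATP synthase uses. It read 9.45, 9.08, 9.19, 8.82 and 8.88 with vehicle and 8.94, 9.30, 9.33, 9.59 and 9.0 at 1 mg/kg. The 5 mg/kg arrays read 9.33, 9.46, 9.63, 9.42 and 9.49, a narrow band that the vehicle range entered through 1 array (9.45). The log2 difference was 0.38 ± 0.18 (SE) at 5 mg/kg (limma, adjusted p = 0.649) and 0.15 ± 0.18 at 1 mg/kg (adjusted p = 0.931). A dimmer tested probe set of Slc25a3 gave -0.08 at 5 mg/kg.

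The ADP/ATP translocases exchange matrix ATP for cytosolic ADP, Slc25a4 mainly in muscle and heart and Slc25a5 in dividing cells. Slc25a4 read 6.62, 7.39, 6.62, 7.15 and 6.50 with vehicle, 6.23, 7.03, 6.98, 6.96 and 6.21 at 1 mg/kg, and 7.50, 6.90, 7.34, 7.08 and 7.52 at 5 mg/kg. In the 5 mg/kg group 2 arrays lay above every array of the other groups, and the rest overlapped them. Its log2 difference was 0.41 ± 0.24 against vehicle (limma, adjusted p = 0.766) and 0.58 ± 0.24 against 1 mg/kg (adjusted p = 0.567). All 3 tested probe sets of the gene were higher at 5 mg/kg, by 0.41, 0.91 and 0.67 against vehicle and 0.58, 0.85 and 0.80 against 1 mg/kg. With each probe set fitted on its own, the 2 dimmer ones had SEs of 0.32 and 0.27 against vehicle (limma, adjusted p = 0.393 and 0.501). Slc25a5 averaged 9.52 ± 0.37 (SD, n = 5), 9.59 ± 0.48 and 9.93 ± 0.28, a log2 difference of 0.41 ± 0.25 (SE) at 5 mg/kg (adjusted p = 0.773). Of its 8 tested probe sets 7 gave 0.37 to 0.65 and the other gave -0.15.

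Among the carriers of organic acids, Slc25a11 had the smallest p of the 29 at 5 mg/kg with 1 probe set per gene. With each probe set fitted on its own, some dimmer ones of Slc25a4 and Slc25a5 had a smaller p. The smallest adjusted p (limma) was then 0.393 for Slc25a4 and 0.511 for Slc25a5, against 0.549 for Slc25a11. Slc25a11 exchanges oxoglutarate for malate in the malate-aspartate shuttle. It read 5.99, 4.00, 5.45, 4.57 and 4.91 with vehicle and 4.00, 6.43, 4.00, 6.16 and 4.00 at 1 mg/kg, with 1 and 3 arrays at the floor. The 5 mg/kg arrays read 5.53, 6.33, 6.11, 6.96 and 5.99, all above the floor and overlapping both other groups. The log2 difference was 1.20 ± 0.52 (SE) against vehicle (limma, adjusted p = 0.583), with a 95% interval of 0.11 to 2.29, and 1.26 ± 0.52 against 1 mg/kg (adjusted p = 0.563). At 1 mg/kg against vehicle it was -0.06 ± 0.52, and 0.27 without scaling between arrays. Its partner in the shuttle, the aspartate/glutamate carrier Slc25a12, stood at 5.50 ± 0.40 (SD, n = 5), 5.17 ± 0.56 and 5.47 ± 0.36. The difference of Slc25a12 at 5 mg/kg was -0.03, and its dimmer tested probe sets gave 0.22 and -0.32. The other aspartate/glutamate carrier, Slc25a13, was above the floor on 3 arrays only.

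Slc25a1, which exports citrate for fatty acid synthesis, read 7.80, 6.94, 7.27, 7.36 and 7.21 with vehicle, 7.81, 7.64, 7.20, 8.33 and 7.54 at 1 mg/kg, and 7.37, 7.35, 7.39, 7.51 and 7.02 at 5 mg/kg. The group at 1 mg/kg had the higher mean, by 0.39 ± 0.22 against vehicle (limma, adjusted p = 0.848), and it overlapped the vehicle group. The 5 mg/kg difference was 0.01 ± 0.22. The dicarboxylate carrier Slc25a10 varied more, at 5.56 ± 1.18 (SD, n = 5), 6.37 ± 0.96 and 5.96 ± 1.12. Its log2 difference at 5 mg/kg was 0.41, whereas a dimmer probe set, above the floor on 8 arrays, gave -0.09. Between the doses that probe set gave -0.92 ± 0.30 (SE). The glutamate carrier Slc25a22 stood at 5.03 ± 1.28, 5.01 ± 1.18 and 4.84 ± 1.30, with a 95% interval of -1.69 to 1.29 for the log2 difference at 5 mg/kg.

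**Figure D3:**
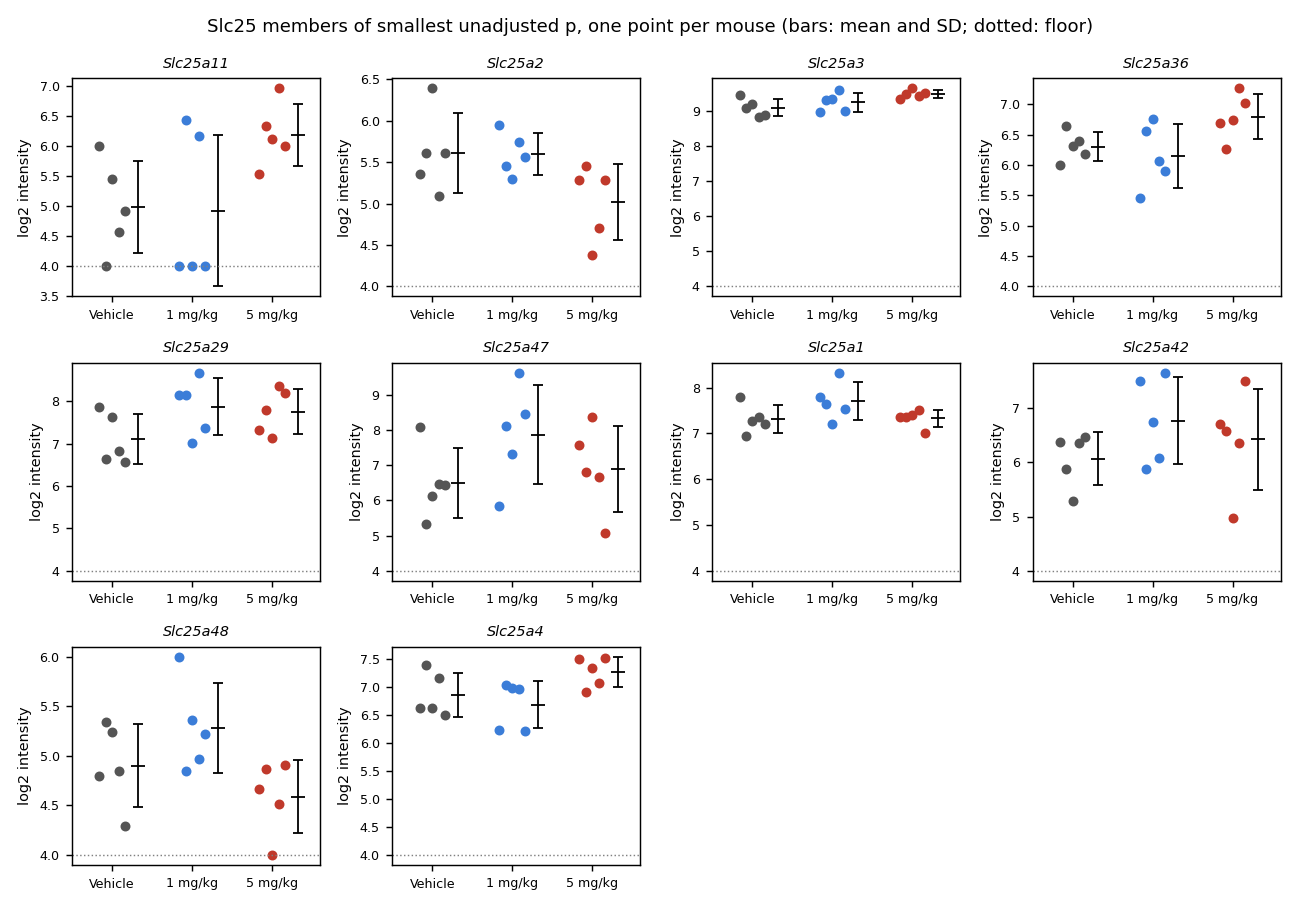
Log2 intensity of the members described array by array other than Slc25a24, each mouse a point and each bar a group mean with SD, for vehicle, ABBV-075 at 1 mg/kg and at 5 mg/kg. The groups overlap in every panel; 3 of the 5 arrays of Slc25a11 at 1 mg/kg sit at the floor of 4, and Slc25a3 forms its narrowest group at 5 mg/kg, between 9.33 and 9.63.

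None of the carriers of amino acids passed the test. Slc25a2, a second ornithine carrier, read 5.36, 5.61, 6.39, 5.10 and 5.61 with vehicle, 5.94, 5.45, 5.30, 5.75 and 5.56 at 1 mg/kg, and 5.29, 5.45, 4.38, 4.71 and 5.28 at 5 mg/kg. In the 5 mg/kg group 2 arrays lay below all others and 3 lay inside the vehicle range. The log2 difference was -0.59 ± 0.26 (SE) against vehicle (limma, adjusted p = 0.594) and -0.58 ± 0.26 against 1 mg/kg (adjusted p = 0.619). The main ornithine carrier Slc25a15 differed by -0.14 ± 0.45 at 5 mg/kg (adjusted p = 0.980). Slc25a29 carries basic amino acids. It read 7.87, 6.64, 7.63, 6.84 and 6.58 with vehicle, 8.16, 8.14, 7.01, 8.68 and 7.38 at 1 mg/kg, and 7.31, 7.78, 7.13, 8.37 and 8.19 at 5 mg/kg. Both doses had higher means, by 0.76 ± 0.36 at 1 mg/kg (adjusted p = 0.828) and 0.65 ± 0.36 at 5 mg/kg (adjusted p = 0.740). These are not separate evidence, since the vehicle arrays are shared. Dimmer tested probe sets of Slc25a29 gave 0.18 and 0.40 at 1 mg/kg and 0.10 and 0.44 at 5 mg/kg. Slc25a44, reported to carry branched-chain amino acids, differed by 0.12 ± 0.24 at 5 mg/kg, and its dimmer tested probe sets gave -0.28 and 0.15.

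The carriers of fatty acids and cofactors did not pass the test in any comparison. Slc25a20 brings acylcarnitines in for beta-oxidation, and it averaged 6.34 ± 0.26 (SD, n = 5), 6.44 ± 0.24 and 6.39 ± 0.17. Its log2 difference at 5 mg/kg was 0.05, with a 95% interval of -0.33 to 0.44. Slc25a42, a coenzyme A carrier, read 6.37, 5.87, 5.29, 6.36 and 6.46 with vehicle, 7.50, 5.87, 6.74, 6.08 and 7.66 at 1 mg/kg, and 6.70, 6.59, 4.97, 6.35 and 7.51 at 5 mg/kg. At 1 mg/kg 3 arrays lay above all vehicle arrays, and the log2 difference was 0.70 ± 0.44 (SE; limma, adjusted p = 0.872). A dimmer tested probe set of Slc25a42 gave 0.30 at 1 mg/kg. The NAD carrier Slc25a51 stood at 11.66 ± 0.32 (SD, n = 5), 11.43 ± 0.36 and 11.19 ± 0.82, and its 3 tested probe sets gave -0.46, -0.61 and -0.33 at 5 mg/kg (adjusted p = 0.819 for the first). The folate and FAD carrier Slc25a32 differed by -0.24 ± 0.32 (SE) and Slc25a16, linked to coenzyme A, by 0.17 ± 0.27.

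Slc25a36 imports pyrimidine nucleotides, the building blocks of mitochondrial DNA and RNA. It read 6.00, 6.63, 6.30, 6.40 and 6.17 with vehicle, 5.45, 6.56, 6.76, 6.06 and 5.91 at 1 mg/kg, and 6.70, 6.26, 6.74, 7.26 and 7.02 at 5 mg/kg. Of the 5 mg/kg arrays 4 of 5 lay above all vehicle arrays. The log2 difference was 0.49 ± 0.26 (SE) against vehicle (limma, adjusted p = 0.718) and 0.65 ± 0.26 against 1 mg/kg (adjusted p = 0.559). The related Slc25a33 was above the floor on 3 arrays, none of them from vehicle mice.

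Slc25a39, which brings glutathione into mitochondria and is needed for heme synthesis, had log2 intensities of 13.50 ± 0.05 (SD, n = 5), 13.43 ± 0.09 and 13.50 ± 0.05. Its log2 difference at 5 mg/kg was 0.00 with a 95% interval of -0.30 to 0.30, and its 5 tested probe sets gave -0.09 to 0.00. Its values lay near the top of the normalised distribution, where quantile normalisation leaves little room for arrays to differ. The erythroid markers, of which 6 of 10 were matched, had a median log2 difference of -0.31 at 5 mg/kg. Slc25a28 (mitoferrin 2), which imports iron, had the widest spread of all members. It lay between 8.36 and 10.23 on 8 arrays and between 4.00 and 6.04 on 7, and both kinds occurred in every group, the higher kind on 2 vehicle, 2 low-dose and 4 high-dose arrays. Its log2 difference of 1.34 ± 1.05 (SE) at 5 mg/kg did not pass (limma, adjusted p = 0.831).

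The less characterised members held the largest difference at 1 mg/kg. Slc25a47, described mainly in liver, read 8.08, 5.33, 6.14, 6.46 and 6.44 with vehicle, 5.84, 8.12, 7.31, 9.64 and 8.45 at 1 mg/kg, and 7.59, 6.82, 8.37, 6.68 and 5.06 at 5 mg/kg. Its log2 difference at 1 mg/kg was 1.38 ± 0.69 (SE; limma, adjusted p = 0.835), with a 95% interval of -0.08 to 2.83, and 3 arrays of that group lay above all vehicle arrays. Slc25a48 read 4.79, 5.34, 5.24, 4.84 and 4.29 with vehicle, 6.00, 4.84, 5.36, 4.97 and 5.22 at 1 mg/kg, and 4.66, 4.87, 4.00, 4.51 and 4.90 at 5 mg/kg. With 1 probe set per gene, it had the smallest p of all members between the doses, with a log2 difference of -0.69 ± 0.26 (adjusted p = 0.537). With each probe set fitted on its own, dimmer ones of Slc25a10 and Slc25a4 had a smaller p. The smallest adjusted p (limma) was then 0.446 for Slc25a10 and 0.453 for Slc25a4, against 0.488 for Slc25a48. The uncoupling-protein relative Slc25a30 differed by -0.33 ± 0.40 at 5 mg/kg, but its other 2 tested probe sets gave 0.37 each. Slc25a46, an outer-membrane protein of mitochondrial fission, gave -0.40 ± 0.39 with 1 probe set and 0.21 with the other. Slc25a34, Slc25a35 and Slc25a45 differed by -0.09 ± 0.60, -0.04 ± 0.31 and -0.55 ± 0.45.

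At 1 mg/kg against vehicle, 0 of the 29 members other than Slc25a24 and 0.008% of all tested genes passed limma's adjusted threshold. Of the 29, Slc25a29 had an unadjusted p under 0.05 as higher (1.97% of all genes) and none as lower (4.06%), with 6.03% of all genes in either direction. None of the 29 had groups without overlap (0.72% of all genes as lower). Members were higher in 18 and lower in 12 cases (47% and 53% of all genes), with a median log2 difference of 0.09 over the 29 others and -0.02 over all genes. Between the doses 0 members and 0% of all genes passed. Here, with 1 probe set per gene, 5 members had an unadjusted p under 0.05, or 16.7% of the 30 against 7.9% of all genes. Slc25a11, Slc25a36 and Slc25a4 were higher at 5 mg/kg (5.26% of all genes), and Slc25a48 and Slc25a2 were lower (2.63%). No member had doses without overlap (0.92% of all genes as higher, 0.24% as lower), and 13 were higher and 17 lower (47.7% and 52.3% of all genes).

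In the same comparison the B cell markers, 9 of 10 matched, were higher at 5 mg/kg than at 1 mg/kg in 9 of 9 tested, with a median log2 difference of 0.91, and their summed intensity was 595 to 2277 at 1 mg/kg and 2079 to 4403 at 5 mg/kg (1103 to 2777 with vehicle). The T cell markers were higher in 7 of 7 tested by a median of 0.60, with sums of 722 to 1484 and 1189 to 2304 (1023 to 1650 with vehicle), and Cd4 lay at the floor on all arrays. None of the B or T cell markers passed limma's adjusted threshold, while 4 of 9 and 3 of 7 were higher at an unadjusted p under 0.05 (5.26% of all genes). Their part in the values of Slc25a4, Slc25a11, Slc25a36, Slc25a2 and Slc25a48 was not tested.

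**Figure D4:**
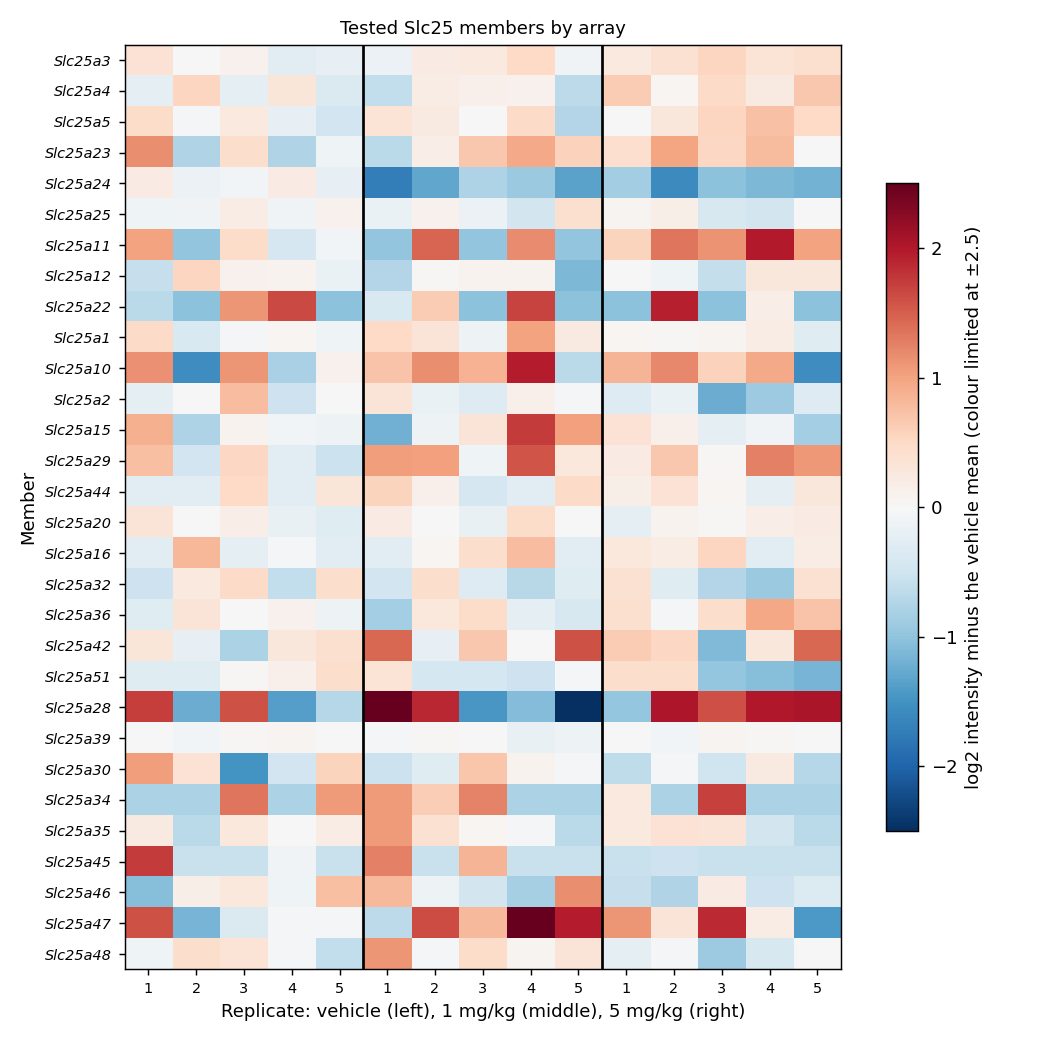
Each of the 30 tested members (lines, ordered by role) on each of the 15 arrays (columns, by group), as log2 intensity minus the member's vehicle mean, on a colour scale limited at both ends. The line of Slc25a24, chosen because it fell on these same arrays, is below its vehicle mean on all 10 treated arrays. Slc25a28 alternates between high and low arrays in all 3 groups.

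Other genes of metabolite, ion or protein transport across the mitochondrial membranes were set beside the members. They include relatives of the carriers under other symbols, among them Mtch2 and Ucp3. The list held 33 genes, of which 28 were matched and 23 tested. None passed limma's adjusted threshold in any comparison, and at 5 mg/kg 0 had an unadjusted p under 0.05 (7.78% of all genes). The unadjusted count was 2 of 23 at 1 mg/kg against vehicle (Timm29 as higher, Sfxn1 as lower, 6.03% of all genes) and 2 of 23 between the doses (Tomm20 as higher, Timm29 as lower, 7.9%), and Timm29 and Sfxn1 are named here after their values were seen. At the higher dose, of the 23, 12 were higher and 11 lower, with a median log2 difference of 0.05. Mtch2, an outer-membrane relative of the carriers that inserts proteins, had the smallest p, with 0.38 ± 0.18 (SE; adjusted p = 0.658). The import receptor Tomm20 differed by 0.47 ± 0.29 (adjusted p = 0.770), the small import chaperone Timm10, which escorts carrier precursors, by -0.51 ± 0.25 (adjusted p = 0.680), and the uncoupling protein Ucp3 by -0.62 ± 0.41 (adjusted p = 0.794). 

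Different probe sets of a gene did not always give the same direction. Of the 42 members, 23 had several probe sets, 16 of these had several that were tested, and in 7 of the 16 all tested ones had the same sign at 5 mg/kg. Over the members the standard error of the 5 mg/kg difference ran from 0.14 (Slc25a39) to 1.05 (Slc25a28), with a median of 0.32. The median SD within the vehicle group was larger over the members (0.48) than over all tested genes (0.39). It was similar at 1 mg/kg (0.50 and 0.50) and at 5 mg/kg (0.37 and 0.40).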

How the data were processed

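Whole-blood RNA of 15 mice, labelled as separate animals, was hybridised to Affymetrix 3' arrays. Qiazol extraction, RNeasy clean-up and biotin labelling of cRNA from 200 ng (3' IVT Plus kit) are recorded per the labels' protocols. The authors deposited linear intensity values for 45101 probe sets, with some below 0, as read from the values. The software, summarisation and any normalisation behind them are not given in the sources used here.

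Without the 64 control probe sets, arrays were quantile normalised (the deposited intensity values are not on a common scale), values were floored at 16 and log2 was taken. Probe sets annotated with 1 gene (34945) were used, not those with several (932) or none listed (9160). An update of the symbols by Entrez identifier changed 0 of them. Each gene took its probe set of highest mean over all arrays, and 12499 genes above the floor on at least 5 arrays were tested two-sided by limma 3.58.1 under R 4.3.3, with group means as terms and eBayes moderation (Benjamini-Hochberg over all tested genes, 12 residual and 3.90 prior degrees of freedom). The procedure was tested on simulated data. Replicate numbers were not used to pair mice across groups, and the labels do not say whether they link mice. Deviations of same-numbered arrays correlated between -0.28 and 0.35, which does not settle it.

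The members, the lists (other mitochondrial transport genes and blood cell markers) and the tests were chosen with earlier results of these data known. Array-by-array values are given for Slc25a24, for each comparison for the 4 other tested members of smallest p, and for any member past the threshold or with groups that do not overlap. Of the other transport genes the 4 of smallest p at 5 mg/kg are named, and other members are named by role. Alternatives covered scaling, floor, filter, probe set choice, array weights, covariates and left-out arrays. Promoter windows are from RefSeq.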

Additional observations from a re-analysis of the deposited data

Results flagged for a closer look

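In each group of 5 mice the highest and the lowest array of each tested member were compared with the rest of the group. Among 90 groups, 6 had an array whose gap to the nearest was large for the group's range. About 1 group in 20 is marked by chance, a rate that holds for continuous values and not for groups with values at the floor. Slc25a28, the mitoferrin that imports iron, read 5.79 on 5 mg/kg replicate 1, whereas the next lowest array of that group read 8.37. The dicarboxylate carrier Slc25a10 read 4.01 on 5 mg/kg replicate 5, and the next lowest read 6.12. Vehicle replicate 2 gave the highest Slc25a16 value of its group, 5.11 against 4.25 for the next, and the lowest Slc25a35 value, 4.00 against 4.69. Slc25a45, a carrier without a settled substrate, read 6.29 on vehicle replicate 1 and 4.46 on the next highest vehicle array. At 5 mg/kg it read 4.03 on replicate 2 and lay at the floor on the other 4 arrays, so the distance there is small and is set by the floor. All are log2 intensities.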

How the results depend on the processing

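The count of members other than Slc25a24 past limma's adjusted p of 0.05 was 0 in every comparison and alternative. Slc25a24 chose the family, so its own calls at 5 mg/kg against vehicle are description only. It passed in the standard setting. It did not pass with values not scaled between arrays, 75th-percentile scaling, a floor of 8, log2(value + 16) or the trend and robust options. Nor did it pass with 18S signal as a covariate, with a replicate block, or without the 2 arrays of highest 18S signal. Among left-out arrays, it did not pass without each vehicle array, each 5 mg/kg array and 1 mg/kg replicate 2. It passed in the remaining 12 alternatives. The log2 difference of Slc25a24 ran from -1.24 to -0.58 at 5 mg/kg and from -1.41 to -0.61 at 1 mg/kg over the alternatives. In the other comparisons no member, Slc25a24 included, passed in any alternative. Between the doses the Slc25a24 difference turned to -0.082 without scaling, -0.029 with array weights, -0.078 with replicate 1 of the 1 mg/kg group left out and -0.025 with that of the 5 mg/kg group left out (range -0.078 to 0.164 over left-out arrays), and to -0.027 without the arrays of lowest and highest median intensity. The cause was not tested. The replicate block used numbers whose meaning across groups the labels do not give, and 4 of 15 arrays correlated best with their own number. Leaving out the arrays of extreme median or of highest 18S signal was chosen after seeing the data. Of the other 29 members, 24 were tested in all 30 alternatives with 1 value per gene, of which 16, 13 and 13 kept their sign in all of them at 5 mg/kg and 1 mg/kg against vehicle and between the doses (Slc25a39, at 0 at 5 mg/kg, is not counted there), and another scaling alone turned 3, 6 and 6 of the 29. Without scaling the median of all genes moved from -0.03 to 0.10 at 5 mg/kg. With 5 arrays a group, the number of arrays limits the precision.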

Other observations

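Slc25a29, the carrier of basic amino acids, and Slc25a47 are neighbours, their starts lying 15253 bases apart on chromosome 12 on opposite strands, and both had their highest mean at 1 mg/kg (7.87 each). Vehicle means were 7.11 and 6.49. Both genes read highest on 1 mg/kg replicate 4 (8.68 and 9.64), the array of highest median intensity. Members elsewhere in the genome also read highest on that array, among them Slc25a1 (8.33), Slc25a15 (8.89) and Slc25a10 (7.52). Slc25a42 (7.66) and Slc25a48 (6.00) read highest on other arrays of that group. Dimmer tested probe sets of Slc25a29 gave smaller log2 differences at 1 mg/kg against vehicle, 0.18 and 0.40. Neither gene passed limma's adjusted threshold (adjusted p = 0.828 and 0.835), and the pair was picked after its values were seen.

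The remaining blood cell marker lists gave these median log2 differences at 5 mg/kg against vehicle: -0.22 for neutrophils (11 tested), -0.40 for NK cells (9), -0.23 for platelets (10), 0.05 for eosinophils and basophils (3) and -0.58 for dendritic cells (6). The B cell and T cell lists gave 0.61 and 0.33. None of these markers passed limma's adjusted threshold. Only 4 of 10 matched eosinophil and basophil markers and 6 of 9 dendritic cell markers were above the floor on any array. The 3 tested eosinophil and basophil markers ran from -2.14 to 0.17. At an unadjusted p under 0.05, 3 dendritic cell, 2 neutrophil, 1 NK cell, 1 platelet and 1 eosinophil and basophil marker were lower (4.26% of all genes). As higher, 3 B cell markers and 1 T cell marker reached it (3.51%).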
